A study of Mus musculus with 48 samples.

Results

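Mouse embryonic stem cells (ESCs) kept for 8 days with V580 were compared with cells taken from the gonads of female mouse embryos at E12.5 (embryonic day, counted from the mating). V580 stands for vitamin C (Vc) given together with AM580, a synthetic agonist of retinoic acid receptors, and the treated cells are called gonadal somatic cell-like cells (GSCLCs). The comparison held all 3 libraries of V580_D8 and all 3 libraries of E12.5_GC, 6 of the 48 samples of the series, and they were taken by their labels alone. The labels give the strain C57BL/6 for both groups, and the question was how far the induced cells had come towards the somatic cells of the fetal ovary.

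The V580_D8 cells came from female ESCs, with or without a GFP transgene under the β-actin promoter, that were freed of feeder cells by adherence, plated on fibronectin and fed with V580 until day 8. The E12.5_GC cells were separated from female gonads and received no V580. For gonads the study describes a column that held back SSEA1-positive germ cells and let the somatic cells through, and for induced cells a removal of SSEA1-positive cells before aggregation, but the labels do not tie either step to these libraries. Each library was bulk poly(A) RNA from a mixed population, so fewer cells of a type and less RNA per cell could not be told apart, and culture against embryo, treatment against none, and any difference in handling between the groups could not be told apart either. The labels do not say whether the 3 libraries of a group came from separate cultures or litters, so the p-values measure only the spread between these libraries. Libraries of V580_D6 and V580_D10, cells given the same treatment up to day 6 and day 10, were set beside day 8 at the end.

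The values were FPKM, fragments of each transcript scaled to its length and to the mapped fragments of the library, for 13682 genes, and the reads behind them are unknown. The FPKM of a library summed to 219675 to 236179 in V580_D8 and 215893 to 266293 in E12.5_GC. Replicates lay closer together in culture than in the embryo: the root mean square difference between libraries on log2(FPKM+1) was 0.0994 to 0.149 within V580_D8, 0.3 to 0.462 within E12.5_GC and 0.807 to 0.874 between the groups. Among the genes tested, 5 had a range above 1 on this log2 scale within V580_D8 and 434 within E12.5_GC. Since the model took 1 spread per gene over all groups, its p-values can understate the spread of E12.5_GC and overstate that of V580_D8. An exact 0 in this table need not mean absence, since 50 genes stood at 0 in all 15 libraries of the model, among them Atp5o and Med10, which most cells use.

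The fetal ovary forms from a thickened sheet of coelomic epithelium on the mesonephros, whose cells turn on factors such as Gata4, Wt1, Nr5a1, Lhx9 and Emx2 while they may still become ovary or testis. In female embryos Wnt4, Rspo1 and Foxl2 then mark the pre-granulosa cells, the supporting cells that surround the germ cells. Around them lie interstitial cells with Nr2f2 and Pdgfra, a surface mesothelium, endothelium and resident macrophages, and retinoic acid in this tissue leads the germ cells into meiosis.

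Wt1, Gata6 and Wnt4 differed by less than 2-fold between day 8 cells and gonad cells. Most mesothelial and epithelial genes were higher at day 8, and most pre-granulosa genes were lower. Of 11512 genes tested, 1493 (13.0%) were called, which means here that they differed at least 2-fold with a limma p, after Benjamini-Hochberg (BH) adjustment over those genes, below 0.05. In V580_D8 794 genes (6.9%) were higher and 699 (6.07%) were lower than in E12.5_GC. Fold changes are given on log2(FPKM+1), which understates the change of genes with low values. Their median over all genes was 0.003, and the plot of both means shows most genes along the diagonal. At 16-fold or more 18 genes were higher and 20 lower. Without a fold threshold the test passed 3755 genes as higher (32.6%) and 3515 as lower (30.5%), and the 3 libraries of each group did not overlap in 3550 genes higher in V580_D8 (30.8%) and 3167 lower (27.5%). These shares are the background against which the counts of the gene groups below are to be read. A gene below 1 FPKM in every V580 library of the model was tested only where all 3 E12.5_GC libraries reached 1 FPKM. Such a gene could only lie lower in V580_D8, so its direction was set by this filter.

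**Figure D1:**
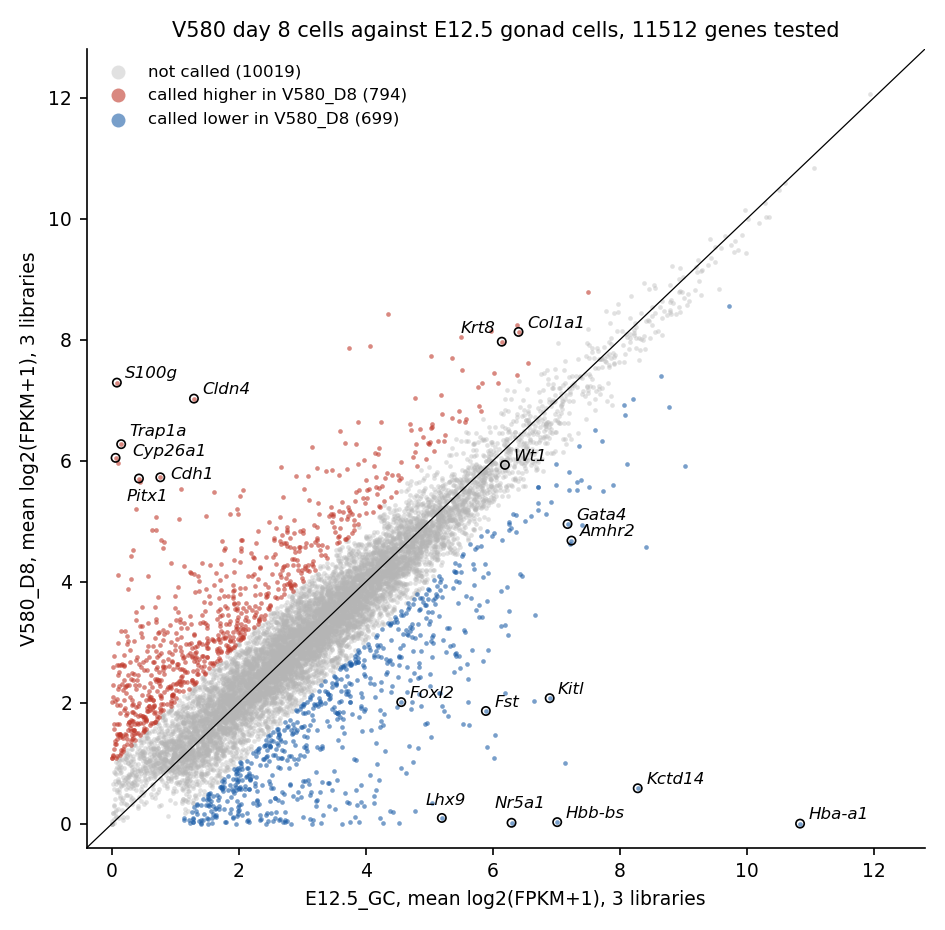
Mean log2(FPKM+1) of each of 11512 genes in E12.5_GC (x axis) and V580_D8 (y axis), 3 libraries each. Red points mark the 794 genes called higher in V580_D8 and blue points the 699 called lower, grey points the others, and the line marks equal values. S100g, Trap1a and Cyp26a1 stand at the left edge, near 0 in E12.5_GC, and Kctd14, Nr5a1 and Hba-a1 along the bottom, near 0 in V580_D8.

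The largest rises came from genes that E12.5_GC hardly expressed. S100g, which encodes the calcium-binding protein calbindin-D9k, stood at 163, 161 and 143 FPKM in the V580_D8 libraries and at 0.07498, 0.0888 and 0 in E12.5_GC, a log2 fold change of 7.21 (SE 0.14, adjusted p = 9.3e-15). Trap1a, an X-linked antigen gene known from tumours and placenta, read 78.6, 75.1 and 75.3 FPKM against 0.0611, 0.217 and 0.0434 (log2 fold change 6.13). All V580_D8 libraries of both genes lay far above all E12.5_GC libraries. Cdkn2a, the locus of the cell cycle inhibitor p16 and of p19Arf, read 61.1, 61.6 and 60.97 FPKM against 0.0921, 0.0727 and 0.0436 (log2 fold change 5.86). Pitx1, a homeodomain factor of the hindlimb and pituitary, averaged 51.2 ± 3.38 FPKM against 0.347 ± 0.1503 (mean ± SD of 3 libraries, here and below; log2 fold change 5.28). Perp and Sfn, targets of p53 that epithelia also express, rose with log2 fold changes of 4.83 and 4.44. The other genes among the 10 largest rises were Cyp26a1, Cldn4, Actg2 and Cdh1, which are described with their groups.

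The largest falls were led by genes of blood and of the gonad's supporting cells. Kctd14, listed with the pre-granulosa genes and named for a domain it shares with potassium channels, read 0.5404, 0.473 and 0.486 FPKM in V580_D8 and 294, 339.8 and 297 in E12.5_GC (log2 fold change -7.69, SE 0.078, adjusted p = 9.12e-18). Chrm4, a muscarinic acetylcholine receptor, averaged 1.14 ± 0.355 FPKM against 63.97 ± 3.92 (log2 fold change -4.93). For both genes the groups stood apart by more than an order of magnitude. Also among the 10 largest falls were Hba-a1, Hbb-bs, Nr5a1, Lhx9, Kitl, Plvap and Hoxd9, which follow below.

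The transcription factors of the bipotential gonad lay at the gonad's level, at a reduced level or near 0 at day 8. Of 18 listed genes the table used here lists 12, all tested; 0 were called higher and 5 lower, with a median log2 fold change of -0.11 against 0.003 over all genes. Wt1, a zinc finger factor that the gonad and kidney need to form, was close in both groups: 58.9, 60.5 and 60.5 FPKM in V580_D8 and 67.05, 64.5 and 85.95 in E12.5_GC. The V580_D8 libraries lay just below the others, the log2 fold change was -0.26 (adjusted p = 0.0187), and this call of a small difference was lost in a model of only these groups (adjusted p = 0.137) and without V580_D8 replicate 1 (0.0519). Gata6, the relative of Gata4 in gonad and endoderm, read 40.2, 37.04 and 36.997 FPKM against 41.8, 44.2 and 50.3 and was likewise under the fold threshold (log2 fold change -0.25).

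Gata4 and Emx2 were present at day 8 at a reduced level. Gata4, a zinc finger factor at the start of gonad formation, read 30.8, 29.9 and 29.2 FPKM in V580_D8 and 135, 147 and 148 in E12.5_GC, a log2 fold change of -2.22 (SE 0.058, adjusted p = 2.65e-13). No library of one group reached the range of the other. Emx2, a homeodomain factor without which the gonad does not form, averaged 16.9 ± 1.34 FPKM against 44.4 ± 7.22 (log2 fold change -1.33). Gadd45g, a stress-inducible gene that acts upstream of Gata4 in sex determination, averaged 31.1 ± 4.31 FPKM against 91.8 ± 22.6 (log2 fold change -1.51).

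Nr5a1 and Lhx9 were nearly absent at day 8. Nr5a1, the nuclear receptor also called SF-1 that drives gonadal and adrenal steroid cells, was listed at 0.0192, 0.0106 and 0 FPKM in V580_D8 against 71.7, 95.1 and 67.8 in E12.5_GC, with a fitted log2 fold change of -6.28 (SE 0.093). Lhx9, a LIM homeodomain factor of the coelomic epithelium, stood at 0.0731, 0.0759 and 0.0526 FPKM against 38.4, 31.6 and 37.2 (log2 fold change -5.10, SE 0.065). Neither gene reached 1 FPKM in any V580 library from day 4 to day 10. The plot of gonad genes by library shows the groups closest at Wt1 and Wnt4, with Lhx9, Nr5a1 and Kctd14 below 1 FPKM in V580_D8.

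**Figure D2:**
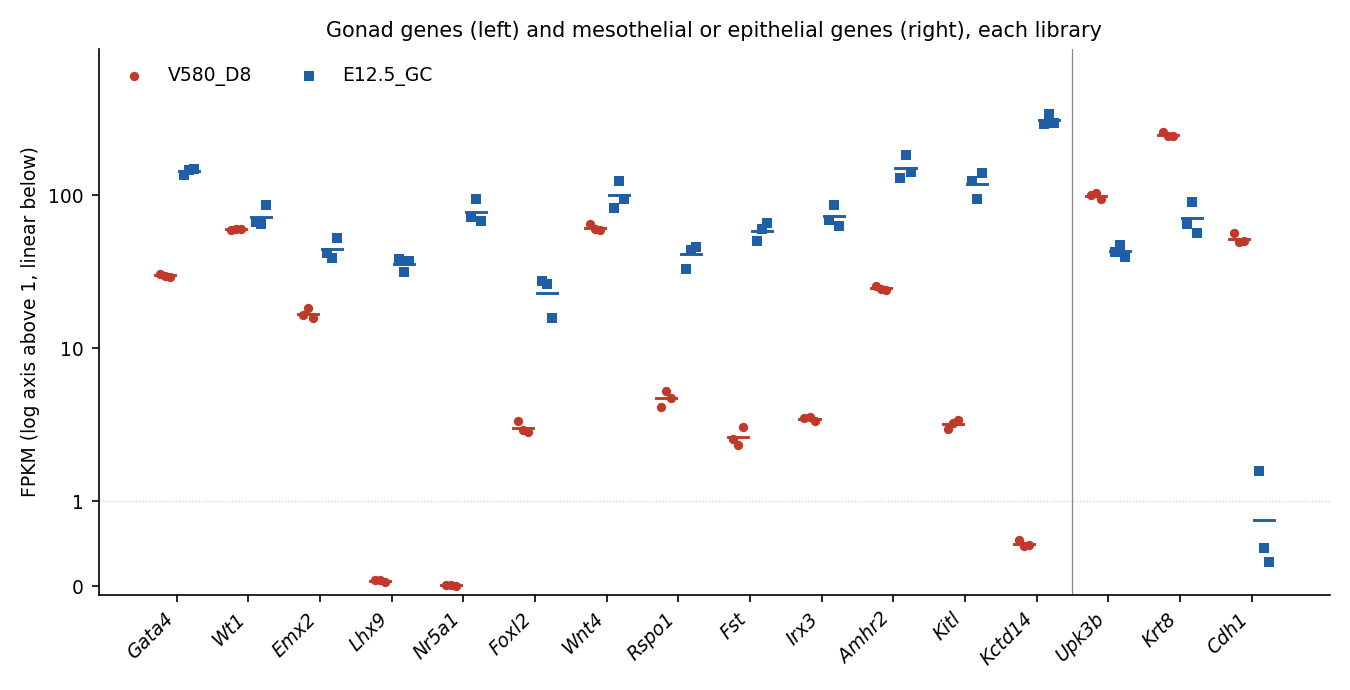
FPKM of 16 genes in each library of V580_D8 (red circles) and E12.5_GC (blue squares), on an axis that is logarithmic above 1 and linear below; short lines mark the means of 3 libraries. Of the 13 gonad genes on the left each lies lower in V580_D8, least for Wt1 and Wnt4, whereas the mesothelial and epithelial genes Upk3b, Krt8 and Cdh1 on the right lie higher.

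Pre-granulosa genes were lower at day 8 almost throughout. Of 17 listed genes 15 were tested, of which 12 were called lower and 1 higher, where 6.07% of all genes were called lower; the median log2 fold change was -2.55. Foxl2, the forkhead factor that keeps granulosa cells from turning into testis cells, read 3.33, 2.93 and 2.83 FPKM in V580_D8 and 27.6, 26.1 and 15.7 in E12.5_GC (log2 fold change -2.55, SE 0.15, adjusted p = 1.78e-09). One gonad library was lower than the other 2, yet its Foxl2 value was still above every day 8 library. Irx3, an Iroquois factor of the granulosa lineage, averaged 3.48 ± 0.105 FPKM against 72.9 ± 11.97 (log2 fold change -4.03). Kctd14, Kitl and Irx3 were the 3 largest falls of this list.

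The ligands of ovarian determination did not move together. Wnt4, the Wnt ligand that represses the testis pathway, read 64.9, 59.97 and 58.9 FPKM in V580_D8 and 82.7, 124 and 94.9 in E12.5_GC (log2 fold change -0.69, adjusted p = 7.55e-05), which is below 2-fold. Rspo1, the secreted amplifier of Wnt signals, averaged 4.71 ± 0.573 FPKM against 41.02 ± 6.88 (log2 fold change -2.87, SE 0.11). Fst, the activin antagonist follistatin that acts downstream of Wnt4 and Rspo1, read 2.54, 2.33 and 3.08 FPKM against 50.01, 59.8 and 65.9 (log2 fold change -4.03, SE 0.11). At day 8 the FPKM of Wnt4 was thus well above those of Rspo1 and Fst.

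Amhr2, the receptor of anti-Müllerian hormone on gonadal supporting cells, was present at day 8 but lower than in the gonad, with 25.3, 24.5 and 23.96 FPKM against 129, 184 and 141 (log2 fold change -2.56, SE 0.11). The single pre-granulosa gene called higher was Cyp26b1 (log2 fold change 3.61), which degrades retinoic acid and is higher in testis than in ovary as a rule. Of 5 tested genes of Sertoli cells, the supporting cells of the testis, Cyp26b1 and Fgf9 were called higher and Aard lower (median log2 fold change -0.40). Of the markers that define these cells, Amh read at most 0.887 FPKM in any library of the model and Dhh at most 0.285, and Sox9 read 7.26, 7.73 and 7.74 FPKM in V580_D8 and 16.99, 8.37 and 7.52 in E12.5_GC, with overlap of the groups. E12.5_GC thus carried Nr5a1, Foxl2, Wnt4 and Rspo1, the markers of the labelled tissue, and the table lists 0 of 6 sex-linked genes that could have checked the label of female cells.

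Ligands by which gonadal cells keep and instruct germ cells were called in both directions. Of 15 tested niche ligands 6 were called lower and 4 higher (median log2 fold change -0.26). Kitl, the Kit ligand that germ cells need to survive and migrate, read 2.99, 3.24 and 3.402 FPKM in V580_D8 and 124, 94.6 and 139 in E12.5_GC (log2 fold change -4.82, SE 0.10). Inhbb, the beta B subunit of activin and inhibin, averaged 1.38 ± 0.108 FPKM against 27.3 ± 2.65 (log2 fold change -3.57). Kitl and Inhbb thus lay in single digits at day 8 in all 3 libraries. Bmp2, a bone morphogenetic protein of the fetal ovary, averaged 6.02 ± 0.348 FPKM against 42.3 ± 12.3 (log2 fold change -2.59), and Cxcl12, the chemokine that guides germ cells, 3.02 ± 0.274 FPKM against 8.71 ± 1.398 (log2 fold change -1.26). The 4 higher genes were Lif, Bmp4, Fgf9 and Bdnf, of which Bmp4, the ligand that specifies germ cells in the early embryo, averaged 9.77 ± 0.452 FPKM against 2.28 ± 0.373 (log2 fold change 1.72).

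Retinoic acid diffuses to nuclear receptors that bind response elements in DNA as partners of the RXR receptors, and the enzymes Cyp26a1 and Cyp26b1 break it down again. Genes of this system were more often higher than lower at day 8: of 19 tested 10 were called higher and 2 lower, where 6.9% and 6.07% of all genes were, and the median log2 fold change was 1.19. AM580 is an agonist of these receptors and was given to V580_D8 alone.

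The promoters of Cyp26a1 and Rarb are shown because both are textbook targets of the receptors, were called higher and hold a direct repeat next to their start. The motif searched was a direct repeat of cores with 5 bases between them, where a core is AGGTCA, or AGTTCA, or GGTTCA, or GGGTCA, on both strands, in RefSeq promoter windows of mouse build GRCm38.p6 that run from 250 bases before to 50 after a start. It was found in 32 of 32851 windows (0.0974%). Of the 9095 tested genes with a window 3 (0.033%) held it, and all 3 were called. Of the genes called higher, 570 of 794 had a window and 2 of those held the repeat, Cyp26a1 and Rarb; of the genes called lower, 503 of 699 had a window and 1 held it, Blvrb (log2 fold change -1.55), named after its value was seen. A match describes the letters and is not evidence of binding. The 250 bases before the start of transcription are given 5′ to 3′ on the strand of the gene, with the repeat in capitals. Cyp26a1 lies on the plus strand at chr19:37697558-37697807 and Rarb on the minus strand at chr14:16575477-16575726.
Cyp26a1: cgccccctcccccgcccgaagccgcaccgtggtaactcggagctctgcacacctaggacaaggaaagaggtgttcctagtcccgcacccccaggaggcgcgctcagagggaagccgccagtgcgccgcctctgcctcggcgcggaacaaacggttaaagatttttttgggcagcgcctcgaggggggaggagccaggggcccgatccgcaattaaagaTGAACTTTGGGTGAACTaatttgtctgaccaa
Rarb: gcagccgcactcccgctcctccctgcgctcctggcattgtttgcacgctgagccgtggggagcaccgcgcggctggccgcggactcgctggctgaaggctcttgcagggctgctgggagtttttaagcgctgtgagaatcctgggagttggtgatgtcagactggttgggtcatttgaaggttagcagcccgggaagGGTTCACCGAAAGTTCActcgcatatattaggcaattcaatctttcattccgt
The repeat of Cyp26a1, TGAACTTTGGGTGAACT, reads on the opposite strand and begins 32 bases before the start, and that of Rarb, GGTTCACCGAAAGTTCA, reads on the gene's own strand and begins 53 bases before it. The GATA motif AGATAAG, searched on both strands in the same windows, was in 3.04% of all windows, 1.73% of those of genes tested, 1.84% of those of genes called higher and 1.85% of those called lower.

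Cyp26a1 stood at 65.7, 63.9 and 65.6 FPKM in V580_D8 and at 0.0406, 0.0481 and 0.0288 in E12.5_GC, a log2 fold change of 5.99 (SE 0.062, adjusted p = 9.12e-18). The 3 libraries of each group were close together and far from those of the other. Cyp26b1, the form that prevails in the fetal gonad, read 37.4, 30.7 and 31.3 FPKM against 2.81, 1.21 and 1.56 (log2 fold change 3.61). Dhrs3, which turns retinaldehyde back into retinol, averaged 76.8 ± 5.91 FPKM against 13.7 ± 3.95 (log2 fold change 2.43). Cyp26a1, Cyp26b1 and Dhrs3, all of which lower the level of retinoic acid, were thus the 3 largest rises of this list.

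Of the receptors called higher, Rarb and Rarg, Rarb changed more, from 1.22, 0.6397 and 0.6499 FPKM in E12.5_GC to 8.99, 7.39 and 7.65 in V580_D8 (log2 fold change 2.31, SE 0.10). Enzymes that make retinoic acid were at lower levels. Aldh1a1 averaged 3.53 ± 0.457 FPKM against 24.6 ± 6.77 (log2 fold change -2.47) and Aldh1a3 0.872 ± 0.00772 against 3.12 ± 0.253 (log2 fold change -1.14), both called lower. Aldh1a2, the main such enzyme of mesothelium and the member with the highest mean FPKM over the 6 libraries, read 46.4, 47.2 and 46.9 FPKM against 89.6, 93.4 and 86.8 and stayed just under the 2-fold threshold (log2 fold change -0.93, adjusted p = 6.46e-09). The groups did not overlap for any of the 3 enzymes, which also held, on the lower side, for 27.5% of all genes.

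Hox genes lie in 4 clusters whose order along the chromosome matches their expression from head to tail, and genes at the front of a cluster respond early to retinoic acid. At day 8 front members of the Hoxb and Hoxc clusters and Hoxa3 were higher and some rear members lower, which the plot of Hox genes by library shows. Hoxd3 and Hoxd4, at the front of their cluster, were not tested. They overlapped between the groups and read at most 0.621 and 0.279 FPKM in any library of the model. Of 39 listed Hox genes the table used here lists 20, and 17 were tested: 9 were called higher, 4 lower and 4 neither (median log2 fold change 1.56). The 9 higher were Hoxa3, Hoxb3 to Hoxb8, Hoxc4 and Hoxc5, and the 4 lower were Hoxc10, Hoxd8, Hoxd9 and Hoxd10. Hoxb4 read 16.8, 16.4 and 16.995 FPKM in V580_D8 and 1.71, 1.25 and 1.19 in E12.5_GC (log2 fold change 2.90), and Hoxc5 read 58.9, 49.5 and 49.7 FPKM against 6.64, 6.72 and 6.02 (log2 fold change 2.84). Both genes were apart between the groups in all libraries.

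Within the Hoxc cluster the difference turned from one end to the other. It ran from log2 fold changes of 2.07 at Hoxc4 and 2.84 at Hoxc5 over 0.32 at Hoxc6, -0.46 at Hoxc8 and 0.10 at Hoxc9 to -1.51 at Hoxc10; the middle 3 were not called. In the Hoxb cluster Hoxb9, its last member tested, had the smallest difference, with 7.27 ± 0.215 FPKM against 4.75 ± 0.635 (log2 fold change 0.53). Hoxd9 read 1.66, 1.33 and 1.27 FPKM in V580_D8 and 58.7, 66.998 and 52.5 in E12.5_GC (log2 fold change -4.64, SE 0.11) and Hoxd10 0.0899, 0.0248 and 0.0393 against 8.997, 8.099 and 6.16 (log2 fold change -3.04). No Hox gene was called between day 6 and day 8 or between day 8 and day 10. The order along the clusters was described after the values were seen, and the table lists few Hoxa and Hoxd genes.

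**Figure D3:**
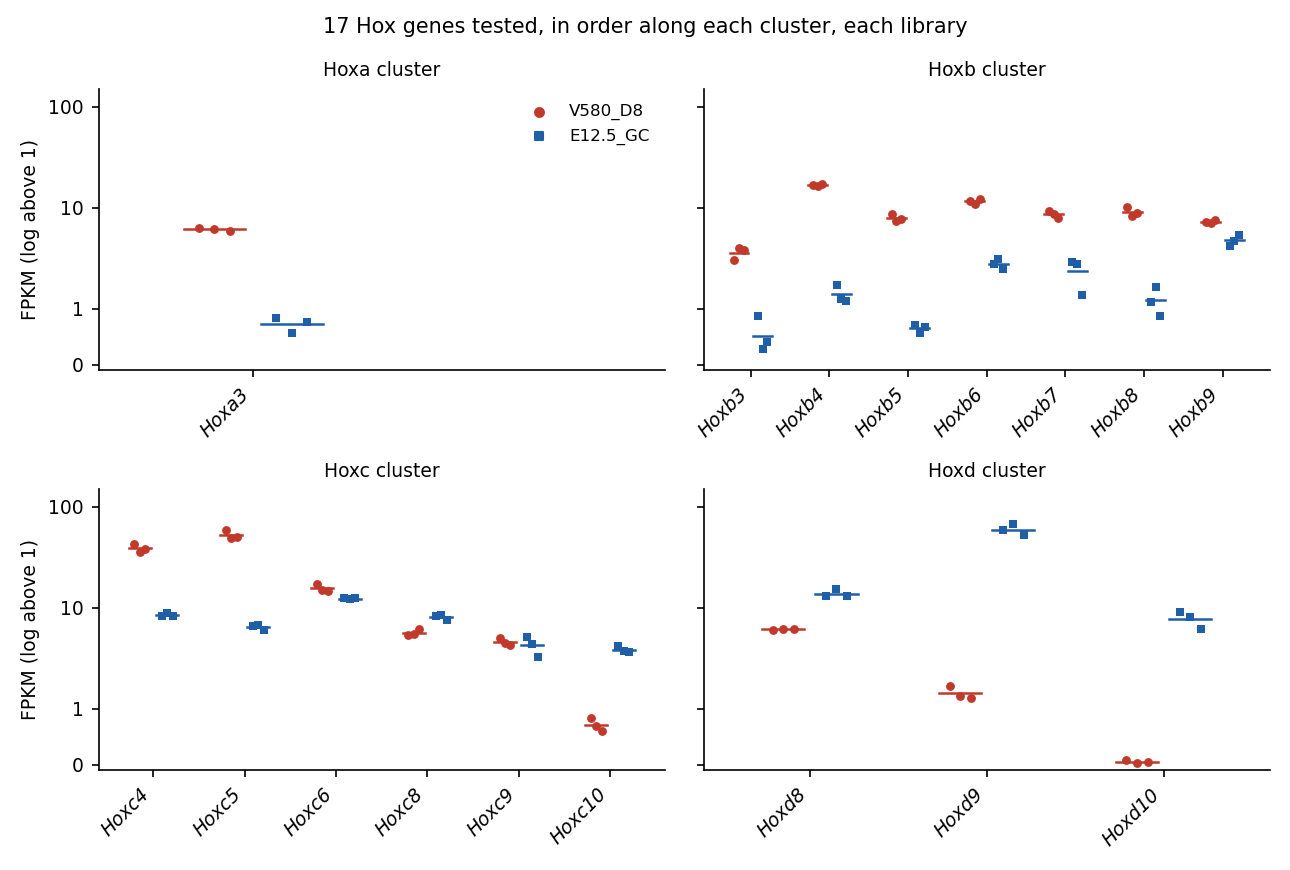
FPKM of the 17 Hox genes tested in each library of V580_D8 (red circles) and E12.5_GC (blue squares), by cluster and in their order along it, on an axis that is logarithmic above 1 and linear below; short lines mark means. The red points lie above the blue ones at Hoxa3, Hoxb3 to Hoxb8, Hoxc4 and Hoxc5 and below them at Hoxc10 and the 3 Hoxd genes.

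Most mesothelial genes, of the flat epithelium that covers the gonad and other organs, were higher at day 8. Of 13 tested 9 were called higher and 1 lower (median log2 fold change 1.63), the lower one being Lhx9. Without the fold threshold 9 were higher and 3 lower by the same limma test, and Wt1 and Aldh1a2, described above, were among the lower ones. Upk3b, an uroplakin that marks mesothelium, read 99.9, 103 and 95.1 FPKM in V580_D8 and 42.5, 47.4 and 39.4 in E12.5_GC (log2 fold change 1.19, SE 0.072). Msln, the surface protein mesothelin, read 17.7, 15.5 and 15.7 FPKM against 0.153, 0.0202 and 0.0242 (log2 fold change 4.02). Krt19, a keratin of simple epithelia, averaged 231 ± 14.5 FPKM against 12.6 ± 3.56 (log2 fold change 4.13), and the sialomucin Podxl, with the highest mean FPKM of the list over the 6 libraries, read 207 ± 6.16 against 216 ± 34.1 and was not called (log2 fold change -0.05). Krt8, Krt18 and Krt19 of this list are also on the list of epithelial genes.

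Cell junction and keratin genes of epithelia were called in 1 direction, with 21 of 28 tested called higher and 0 lower. Their median log2 fold change was 2.13. Without the fold threshold 26 of them were higher and 1 lower by the same limma test. Cdh1, the adhesion protein E-cadherin, read 56.7, 49.2 and 50.03 FPKM in V580_D8 and 1.58, 0.457 and 0.2903 in E12.5_GC (log2 fold change 4.96, SE 0.18). The tight junction genes Cldn4 and Cldn7 read 138, 126 and 124 FPKM against 2.04, 1.29 and 1.097 and 33.7, 30.5 and 34.1 FPKM against 1.07, 0.438 and 0.393, with log2 fold changes of 5.74 and 4.39. Of both claudins, E12.5_GC replicate 1 had the highest gonad value, still far below day 8. Krt8 and Krt18, the keratin pair of simple epithelia, averaged 249 ± 8.91 and 263 ± 3.22 FPKM in V580_D8 against 70.8 ± 17.4 and 44.9 ± 10.3 in E12.5_GC. These genes also had high levels at day 4, when Krt8 averaged 511 FPKM and Cdh1 213.

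**Figure D4:**
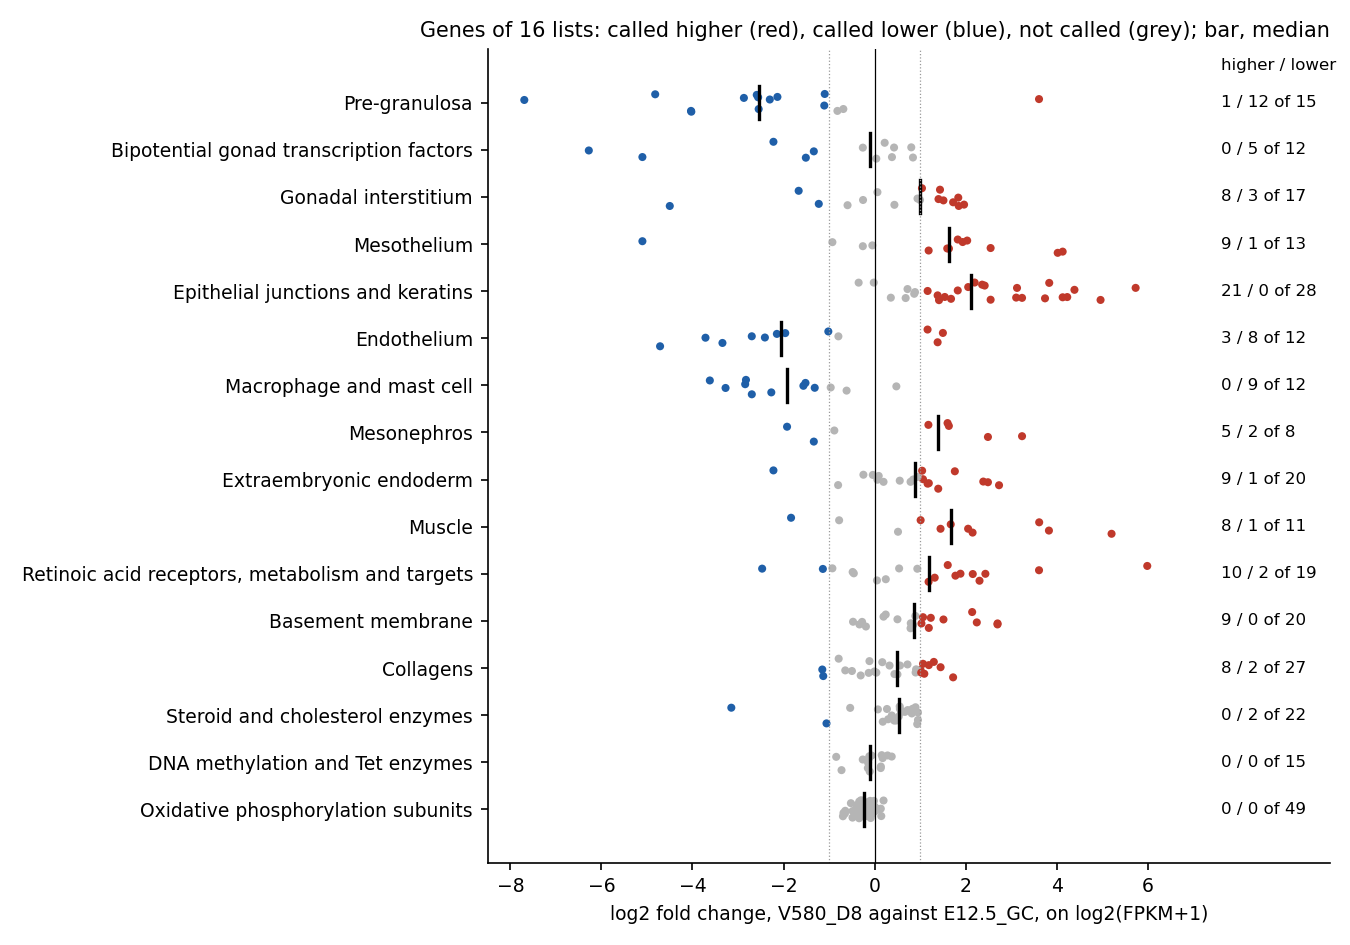
Log2 fold change of V580_D8 against E12.5_GC on log2(FPKM+1) (x axis) for the tested genes of 16 lists (rows). Points are genes, red called higher, blue called lower and grey not called, dotted lines mark 2-fold, and black bars mark list medians; the counts at the right give genes called higher and lower of those tested. Pre-granulosa genes lie mostly left of 0 (1 higher, 12 lower of 15) and epithelial genes right of it (21 higher, 0 lower of 28).

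Interstitial genes were higher more often than lower, but the group was mixed. Of 17 tested 8 were called higher and 3 lower (median log2 fold change 1.00). Nr2f2, the nuclear receptor COUP-TFII of interstitial progenitors, read 40.6, 38.5 and 38.6 FPKM in V580_D8 and 21.1, 15.7 and 19.2 in E12.5_GC (log2 fold change 1.04, and 0.93 without E12.5_GC replicate 2), and its relative Nr2f1 averaged 23.7 ± 0.602 against 5.33 ± 0.453 (log2 fold change 1.97). Lum and Dcn, small proteoglycans of connective tissue, were higher with log2 fold changes of 1.85 and 1.84. Maf, a leucine zipper factor of interstitial progenitors, and Postn, a matrix protein, were among the lower genes, with log2 fold changes of -1.67 and -1.23.

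Markers of fetal Leydig cells, which make steroids, were low: of 4 tested 0 were called higher and 3 lower. Hsd3b1, an enzyme of steroid synthesis, was listed at 0 in all V580_D8 libraries and at 6.79, 14.04 and 4.93 FPKM in E12.5_GC. Hsd3b6, a close relative whose reads may be split with it, read 0.159, 0.02498 and 0.0198 FPKM against 43.7, 11.6 and 10.5, with E12.5_GC replicate 1 well above the other 2. Star, the protein that brings cholesterol into mitochondria, averaged 1.31 ± 0.0997 FPKM against 3.93 ± 1.39 (log2 fold change -1.06). Among 22 tested enzymes of steroid and cholesterol synthesis 0 were called higher and 2 lower, although 18 passed the test as higher without the fold threshold (median log2 fold change 0.54). Without E12.5_GC replicate 1, 2 were called higher, and without E12.5_GC replicate 2, 1.

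Markers of blood vessels and blood cells were lower at day 8. Of 12 endothelial genes tested 8 were called lower and 3 higher (median log2 fold change -2.05), and their summed FPKM was 73.2 to 77.3 in V580_D8 against 123 to 178 in E12.5_GC. Plvap, a protein of endothelial diaphragms, read 0.3698, 0.136 and 0.287 FPKM against 42.3, 32.4 and 23.9 (log2 fold change -4.71), Tie1 0.08501 ± 0.0275 against 13.4 ± 2.47 and Pecam1 0.285 ± 0.0194 against 12.2 ± 2.21. The 3 higher genes, Kdr, Flt1 and Sox17, are not restricted to endothelium. Kdr, a VEGF receptor that mesoderm progenitors also carry, read 44.3, 45.8 and 43.9 FPKM in V580_D8 and 17.9, 10.7 and 18.1 in E12.5_GC (log2 fold change 1.501). Among the 6 endothelial genes with a mean of at least 5 FPKM 3 were called higher and 2 lower. The part of vessel cells in the genes called lower was not tested.

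Haemoglobin transcripts were abundant in the gonad libraries and near 0 at day 8. Of 15 listed red cell genes the table used here lists 5, and 4 were tested. Of these 3 were called lower and 1, the transferrin receptor gene Tfrc, higher, though not without E12.5_GC replicate 2. Hba-a1 was listed at 0 in the 3 V580_D8 libraries and at 4045, 1559 and 967 FPKM in E12.5_GC, and Hbb-bs read 0.0531, 0 and 0 FPKM against 326, 115 and 55.3. Hba-a1 and Hbb-bs made up 1.775%, 0.629% and 0.474% of the FPKM total of the gonad libraries. Hba-a2, Hbb-bt, Hbb-bh1, Hbb-y and Hba-x are absent from the table, so the share of all haemoglobin genes is unknown. Alas2, the haem enzyme of red cells, averaged 0.156 ± 0.0176 FPKM against 32.3 ± 26.7. With Hba-a1 and Hbb-bs removed and all libraries rescaled to the same FPKM total, 1510 genes were called, 58.0% of them higher. The median over all genes moved to 0.078, and the parts of removal and rescaling were not separated. Hba-a1, Hbb-bs and Alas2 were highest in E12.5_GC replicate 1, and the part of red cells in other genes called lower was not tested.

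Of 12 macrophage and mast cell genes tested 9 were called lower and 0 higher (median log2 fold change -1.92). For members below 1 FPKM in every V580 library the filter set this direction, so the count is no independent result. Among genes with a mean of at least 5 FPKM 1 member was left, not called, with a log2 fold change of 0.479. C1qb, a complement subunit of tissue macrophages, was listed at 0 in every V580_D8 library and at 12.4, 15.7 and 7.28 FPKM in E12.5_GC, and C1qa read 0.0392, 0 and 0 FPKM against 10.2, 11.5 and 5.696. Adgre1, the macrophage surface protein F4/80, and Tyrobp were also listed at 0 in V580_D8. The summed FPKM of the list was 7.16 to 7.75 in V580_D8 and 39.7 to 74.3 in E12.5_GC, and the part of macrophages in other genes called lower was not tested.

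Genes of germ cells were mostly low in both groups, and most were not called. Of 10 tested 2 were higher and 1 lower (median log2 fold change 0.42). Ddx4, the germ cell RNA helicase also called Vasa, read 6.32, 6.47 and 5.88 FPKM in V580_D8 and 0.561, 0.608 and 0.661 in E12.5_GC (log2 fold change 2.17, SE 0.073), and Tdrd1, a Tudor protein of the germ plasm, averaged 2.31 ± 0.106 against 0.642 ± 0.247 (log2 fold change 1.02). Dazl, an RNA-binding protein that licenses germ cells for meiosis, read 0.962, 1.43 and 1.22 FPKM against 0.537, 0.904 and 0.575 and was below 2-fold (log2 fold change 0.40). The level of Ddx4 was thus clear of that in gonad cells whose germ cells may have been removed, while Dazl was near 1 FPKM. Utf1, a chromatin factor of ESCs and germ cells, was the 1 lower gene (log2 fold change -1.03), and Dppa5a, which had the highest mean FPKM of the list over both groups together, averaged 5.202 ± 0.372 against 4.05 ± 2.53 (log2 fold change 0.44). Without V580_D8 replicate 3 this list had 4 genes higher and 0 lower, and with the haemoglobin genes removed the same counts.

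Of the pluripotency genes, Pou5f1 and Nanog were low in both groups, and others were called in both directions. Pou5f1, the gene of Oct4, read 0.363, 0.521 and 0.365 FPKM in V580_D8 and 1.15, 1.31 and 0.477 in E12.5_GC, with overlap of the groups, and Nanog read 0.546, 0.643 and 0.779 FPKM against 0.626, 0.494 and 0.547 and did not pass the filter. Of 13 tested genes of this list 5 were called higher and 3 lower (median log2 fold change 0.435). The higher ones were Lin28a, Tbx3, Tdgf1, Fgf5 and Zfp42, and the lower ones Klf2, Klf4 and Utf1. Lin28a, an RNA-binding protein of early embryonic cells, averaged 12.4 ± 0.292 FPKM against 0.652 ± 0.136 (log2 fold change 3.03), after 81.2 at day 4. Tbx3, a T-box factor of naive ESCs and also of mesoderm, averaged 21.9 ± 1.86 against 2.46 ± 0.757 (log2 fold change 2.75). Klf2 and Klf4, which were lower, also belong to the immediate early genes, and their values in E12.5_GC were widely spread: Klf2 read 235, 117 and 36.5 FPKM there against 8.42, 9.41 and 12.49 in V580_D8.

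Genes of extraembryonic endoderm, the lineage that forms the yolk sac lining, were partly higher at day 8: of 20 tested 9 were called higher and 1 lower (median log2 fold change 0.90). Foxa2, a forkhead factor of endoderm, read 6.99, 6.38 and 7.15 FPKM in V580_D8 and 0.4404, 0.108 and 0.0215 in E12.5_GC (log2 fold change 2.73, SE 0.10). Cubn, the endocytic receptor cubilin, averaged 4.69 ± 0.779 FPKM against 0.0801 ± 0.0281 (log2 fold change 2.39). Sox17 was also higher, with 6.78 ± 0.432 FPKM against 2.63 ± 1.42 (log2 fold change 1.16, and 0.99 without E12.5_GC replicate 2). The 1 lower gene was Gata4, which belongs to this list and to that of the gonad. Sparc, a matrix protein made in quantity by parietal endoderm and by mesenchyme, had the highest mean FPKM of the list over the 6 libraries, with 422 ± 32.4 against 289 ± 43.5 (log2 fold change 0.55). Of 18 secreted proteins of liver and yolk sac the table used here lists 5, and 3 were tested. Of these 0 were called at an adjusted p below 0.05 and 2-fold, and 0 passed the limma test without the fold threshold. Afp, Ttr, Apoa1 and Apob, which are on both lists of this paragraph, are absent from the table, so their levels are unknown. Apoe, the apolipoprotein with the highest mean FPKM of them over the 6 libraries, read 132, 121 and 119 FPKM against 122, 150.4 and 85.9, with overlap.

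Lists for mesonephros, trophoblast, muscle and fibroblasts held more genes called higher than lower. Of 8 mesonephric genes tested 5 were called higher and 2 lower (Ret and Emx2). Their median log2 fold change was 1.39, and Osr1, a zinc finger factor of intermediate mesoderm, averaged 9.95 ± 0.475 FPKM against 2.56 ± 0.563 (log2 fold change 1.63). All 5 tested genes of the trophoblast and placenta list were called higher, among them Trap1a, although Krt7, Krt8 and Krt18 of this list are keratins of many epithelia. Of 11 muscle genes tested 8 were called higher and 1, Tnnt1, lower (median log2 fold change 1.67). Actg2, the enteric smooth muscle actin, read 58.2, 45.3 and 45.2 FPKM in V580_D8 and 0.532, 0.411 and 0.164 in E12.5_GC (log2 fold change 5.21), Acta2, the actin of smooth muscle and myofibroblasts, 239 ± 34.99 against 15.95 ± 3.49 (log2 fold change 3.83) and Cnn1, a calponin, 13.8 ± 2.07 against 0.197 ± 0.0605. Of 13 fibroblast genes 9 were called higher and 1 lower: Thy1 averaged 22.6 ± 1.89 FPKM against 0.743 ± 0.178, and Vim, the intermediate filament of mesenchyme, 80.03 ± 10.4 against 211 ± 32.9 (log2 fold change -1.38). Of 13 mesenchymal transcription factors 4 were called higher, namely Osr1, Prrx1, Twist1 and Tbx15, and 0 lower (median log2 fold change 0.17). Of 5 neuronal genes tested 0 were called at 2-fold by limma, while 2 were higher and 1 lower without the fold threshold, and Nes, the filament nestin of many progenitors, averaged 15.7 ± 1.501 FPKM against 10.4 ± 0.424.

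Among signalling pathways, Wnt genes changed at several levels. Of 35 tested 11 were called higher and 4 lower (median log2 fold change 0.38). Of the ligands, Wnt6 averaged 29.6 ± 2.58 FPKM against 171 ± 45.3 (log2 fold change -2.47) and Wnt7b 7.62 ± 0.881 against 0.178 ± 0.151 (log2 fold change 2.87). Of the receptors, the Frizzled gene Fzd6 averaged 16.47 ± 0.477 FPKM against 1.45 ± 0.375 (log2 fold change 2.84), whereas Lgr4 and Lgr5, which receive R-spondins, were lower with log2 fold changes of -1.76 and -1.10. The ligand Rspo1 and its receptors thus lay on the lower side together. Dkk2, a secreted antagonist, averaged 10.9 ± 0.506 FPKM against 1.04 ± 0.553 (log2 fold change 2.59).

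In the BMP and activin family 10 of 38 tested genes were called higher and 8 lower (median log2 fold change 0.33). The ligands Gdf6 and Inhba were higher, Gdf6 with 33.8 ± 2.62 FPKM against 2.697 ± 0.862 (log2 fold change 3.26) and Inhba, the beta A subunit of activin, with 6.13, 6.49 and 6.34 FPKM against 0.191, 0.213 and 0.264 (log2 fold change 2.58). Inhbb, the beta B subunit, fell from 24.9, 26.8 and 30.2 FPKM in E12.5_GC to 1.42, 1.46 and 1.26 in V580_D8. The 2 activin subunits therefore changed in opposite directions. Nog, the BMP antagonist noggin, averaged 9.47 ± 1.054 FPKM against 1.101 ± 0.134 (log2 fold change 2.31). Id1, a direct target of BMP signals and the member with the highest mean FPKM over the 6 libraries, read 250.4, 261 and 271 FPKM against 179, 202 and 347 (log2 fold change 0.17, adjusted p = 0.403).

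Of 11 Hedgehog genes tested 4 were called higher and 0 lower: the ligand Ihh averaged 3.87 ± 0.498 FPKM against 0.0841 ± 0.0339, and its targets Gli1 and Ptch1 5.86 ± 0.504 against 1.401 ± 0.112 and 10.4 ± 0.305 against 3.51 ± 1.72. Of 12 Notch genes 0 were higher and 3 lower, namely the vascular genes Dll4 and Notch4 and the target Heyl, at most 3.88 FPKM in any of the 6 libraries, and the target Hes1 averaged 83.1 ± 9.78 against 65.3 ± 48.2 (log2 fold change 0.59). The share of members called was 36.4% for Hedgehog and 25.0% for Notch, against 13.0% of all genes. Of 16 genes of the IGF system 4 were called higher and 0 lower, led by the binding protein gene Igfbp3 with 220.2, 209 and 207 FPKM against 38.2, 25.7 and 31.6 (log2 fold change 2.72). Irs2, among those 4, overlapped between the groups, since E12.5_GC replicate 3 read as high as day 8 (31.99, 29.5 and 32.5 FPKM in V580_D8 and 9.801, 7.09 and 30.4 in E12.5_GC). Of 21 Hippo genes Vgll3 and Tead1 were called higher and 0 lower; 1 was called without E12.5_GC replicate 2 and 3 without replicate 1 or replicate 3 of that group. Cyr61, a matricellular target of Hippo signals with the highest mean FPKM of that list, read 588, 574 and 627 FPKM against 635, 319 and 452.

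Extracellular matrix genes were higher in part. Of 27 collagen genes tested 8 were called higher and 2 lower (median log2 fold change 0.50), and 5 were called higher without E12.5_GC replicate 2. Col1a1, the main chain of fibrous collagen, read 339, 253 and 252 FPKM in V580_D8 and 88.8, 91.3 and 71.98 in E12.5_GC (log2 fold change 1.73, SE 0.14), and Col6a1, a chain of microfibrils, 173, 135 and 139 against 51.5, 57.5 and 51.7 (log2 fold change 1.45). The summed FPKM of collagens was 1275 to 1521 in V580_D8 and 623 to 695 in E12.5_GC. Of 20 basement membrane genes 9 were called higher and 0 lower (median log2 fold change 0.87), among them Lama5, a laminin chain of epithelia, with a log2 fold change of 2.70. Col4a1, a chain of the basement membrane network, averaged 195 ± 12.2 FPKM against 93.3 ± 13.7 (log2 fold change 1.06). V580_D8 replicate 1 was the highest of its group for Col1a1 and Col6a1.

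Of 43 genes of the cell cycle and DNA replication 3 were called higher and 2 lower (median log2 fold change 0.33; 25 and 11 without the fold threshold), and all 5 are inhibitors of cyclin-dependent kinases. Cdkn2a, Cdkn2b and Cdkn1a were higher: Cdkn2b read 27.7, 24.2 and 22.9 FPKM in V580_D8 and 1.09, 0.491 and 0.588 in E12.5_GC (log2 fold change 3.92) and Cdkn1a, the p53 target p21, 56.5, 54.8 and 55.9 against 11.4, 8.77 and 8.21 (log2 fold change 2.45). Cdkn1c, the imprinted inhibitor p57, read 65.5, 56.97 and 55.2 FPKM against 514, 662 and 413 (log2 fold change -3.12, SE 0.13), and Cdkn1b, p27, averaged 14.1 ± 0.8897 against 73.7 ± 8.07 (log2 fold change -2.30). The inhibitors p57 and p27 were thus higher in E12.5_GC, and those of the Cdkn2a and Cdkn2b loci and p21 in V580_D8. Of 19 imprinted genes tested 6 were called higher, led by Slc38a4 (log2 fold change 1.90), and Cdkn1c alone lower; without E12.5_GC replicate 3, or without V580_D8 replicate 1, 2 were lower.

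Of 19 p53 and stress genes 6 were called higher and 6 lower (median log2 fold change 0.10). The higher ones were known targets of p53, led by Ccng1 with 92.3, 87.5 and 87.2 FPKM in V580_D8 and 12.9, 10.5 and 10.02 in E12.5_GC (log2 fold change 2.90). Among the lower ones were the heat shock genes Hspa1a and Hspa1b, near-identical copies whose reads cannot be assigned with certainty. Hspa1a read 2.09, 1.47 and 1.73 FPKM in V580_D8 and 519.6, 70.5 and 6.403 in E12.5_GC, so the gonad libraries differed among themselves by far more than those of day 8. Hspa5, a chaperone of the endoplasmic reticulum with the highest mean FPKM of that list, averaged 230.3 ± 10.1 against 284 ± 39.8 (log2 fold change -0.29). The immediate early gene Fos, which rises within minutes of handling, read 649, 518 and 636 FPKM against 881, 724 and 472 and was not called (log2 fold change -0.16); of 21 such genes 3 were called higher (Ier3, Socs3 and Fosl2) and 2 lower (Klf2 and Klf4). Fosl2 overlapped between the groups through E12.5_GC replicate 3. The part of tissue handling in these genes was not tested.

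Vitamin C is taken up by the transporters Slc23a1 and Slc23a2 and, oxidised, by glucose transporters, and it serves hydroxylases of collagen, HIF, histones and DNA. Of 19 genes of this list 5 were called higher and 3 lower (median log2 fold change 0.24). The glucose transporter gene Slc2a3 read 45.6, 40.3 and 39.99 FPKM in V580_D8 and 3.65, 2.68 and 2.81 in E12.5_GC (log2 fold change 3.41), and Slc2a1 averaged 90.7 ± 6.897 against 27.9 ± 3.396 (log2 fold change 1.67). Plod2, a lysyl hydroxylase of collagen, averaged 45.03 ± 0.882 FPKM against 7.25 ± 1.38 (log2 fold change 2.49). Pam, which amidates peptides, and the histone demethylase Kdm3a were lower, with log2 fold changes of -1.95 and -1.35. Of 15 genes of DNA methylation and demethylation 0 were called at 2-fold, and 3 were higher and 3 lower without the fold threshold. Mbd3, the member with the highest mean FPKM, averaged 62.2 ± 3.31 against 105 ± 21.98 (log2 fold change -0.73), and Tet1, Tet2 and Tet3, named after their values were seen, had log2 fold changes of -0.14, 0.14 and -0.11.

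Genes of the glycolysis list, which also holds transporters, were called more often than all genes. Respiratory and ribosomal genes were not called at 2-fold. Of 23 genes of this list 6 were called higher and 1, Ldhb, lower (median log2 fold change 0.63). The higher ones were the transporter genes Slc2a3, Slc2a1, Slc16a3 and Slc16a1, and Bnip3 and Eno2. Among them Eno2 alone encodes an enzyme of glycolysis, so the count does not describe the enzymes. Ldhb, a subunit of lactate dehydrogenase, averaged 117 ± 7.22 FPKM against 444 ± 102 (log2 fold change -1.89), while the lactate transporter gene Slc16a3 was higher (log2 fold change 1.44). Of 49 subunits of oxidative phosphorylation 0 were called at 2-fold, with 0 higher and 19 lower without the fold threshold (median log2 fold change -0.23). Of 61 ribosomal protein genes 0 were called, with 0 higher and 5 lower without the fold threshold (median log2 fold change -0.15). Their summed FPKM was 24151 to 27706 in V580_D8 and 21193 to 37491 in E12.5_GC, so the day 8 libraries lay inside the range of the gonad libraries. Cd63, a tetraspanin of late endosomes, read 71.004, 66.4 and 67.4 FPKM against 56.2, 81.8 and 50.9 and was not called (log2 fold change 0.15, adjusted p = 0.319); under quantile normalization its adjusted p was 0.0132, with haemoglobin genes removed 0.0237 and without E12.5_GC replicate 2 0.000229, with log2 fold changes of 0.26, 0.23 and 0.35.

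Day 8 of the V580 treatment was set beside day 6 and day 10 in the same model, with V580_D8 shared by these comparisons. The spread of the E12.5_GC libraries entered their p-values too. The labels do not say whether the days came from the same induction, so day and batch could not be told apart. From day 6 to day 8, 293 genes (2.55%) were called, 264 (2.29%) higher and 29 (0.252%) lower. From day 8 to day 10, 149 genes (1.29%) were called, 112 (0.973%) higher and 37 (0.321%) lower. With haemoglobin genes removed and all libraries rescaled to the same FPKM total, 81 of 134 (60.4%) were higher rather than 75.2%. Haemoglobin was at most 2.32e-05% of the FPKM total in the day 8 and day 10 libraries, so this setting acted here through the rescaling. The genes that rose in both steps numbered 44, and matrix genes were among them: 11 of the 27 collagens rose from day 6 to day 8 and 9 from day 8 to day 10. Col6a1 averaged 17.8, 149 and 334 FPKM at days 6, 8 and 10, against 53.6 ± 3.404 in E12.5_GC, and Col1a1 85.3, 281 and 782. At day 6 Col1a1 lay near the gonad mean of 84.02 ± 10.5 and Col6a1 below its own, and both lay above them from day 8.

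Of the 12 bipotential gonad factors 1 was called higher from day 6 to day 8 and 0 from day 8 to day 10, and the plot of 12 genes by day shows their course. Gata4 averaged 4.94, 17.01, 29.97 and 46.1 FPKM at days 4, 6, 8 and 10, with log2 fold changes of 0.78 from day 6 to day 8 and 0.61 from day 8 to day 10, both under 2-fold. Its level was higher at each later day, yet at day 10 still below that of the gonad. Wnt4 averaged 3.41, 35.6, 61.3 and 78.2 FPKM. Foxl2 averaged 3.21 FPKM at day 6, 3.03 at day 8 and 4.94 at day 10, and the step to day 8 was within the spread (adjusted p = 0.765). Of the 15 pre-granulosa genes 1 was called higher and 0 lower from day 6 to day 8, and 0 higher and 1 lower from day 8 to day 10. That gene was Amhr2 in both steps.

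A peak at day 8 was seen for a few genes. Called higher at day 8 than at both day 6 and day 10 were 5 genes, Amhr2, Etv4, Nr4a1, S100g and Serpina3g, and 1, Chac1, was called lower than at both. Amhr2 read 5.25, 6.35 and 5.68 FPKM at day 6, 25.3, 24.5 and 23.96 at day 8 and 5.31, 5.43 and 5.87 at day 10 (log2 fold change 1.92 from day 6 to day 8, adjusted p = 7.12e-09, and -1.97 from day 8 to day 10, adjusted p = 1.39e-08). The libraries of each day lay close together, and those of day 8 stood apart from both neighbours. S100g averaged 69.2, 156 and 76.6 FPKM at days 6, 8 and 10. Nr4a1, an orphan receptor of the immediate early class, averaged 50.2, 144 and 21.4 FPKM, and of the 21 immediate early genes 4 were called higher from day 6 to day 8 and 7 lower from day 8 to day 10. The part of handling on the day of harvest in these steps was not tested.

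**Figure D5:**
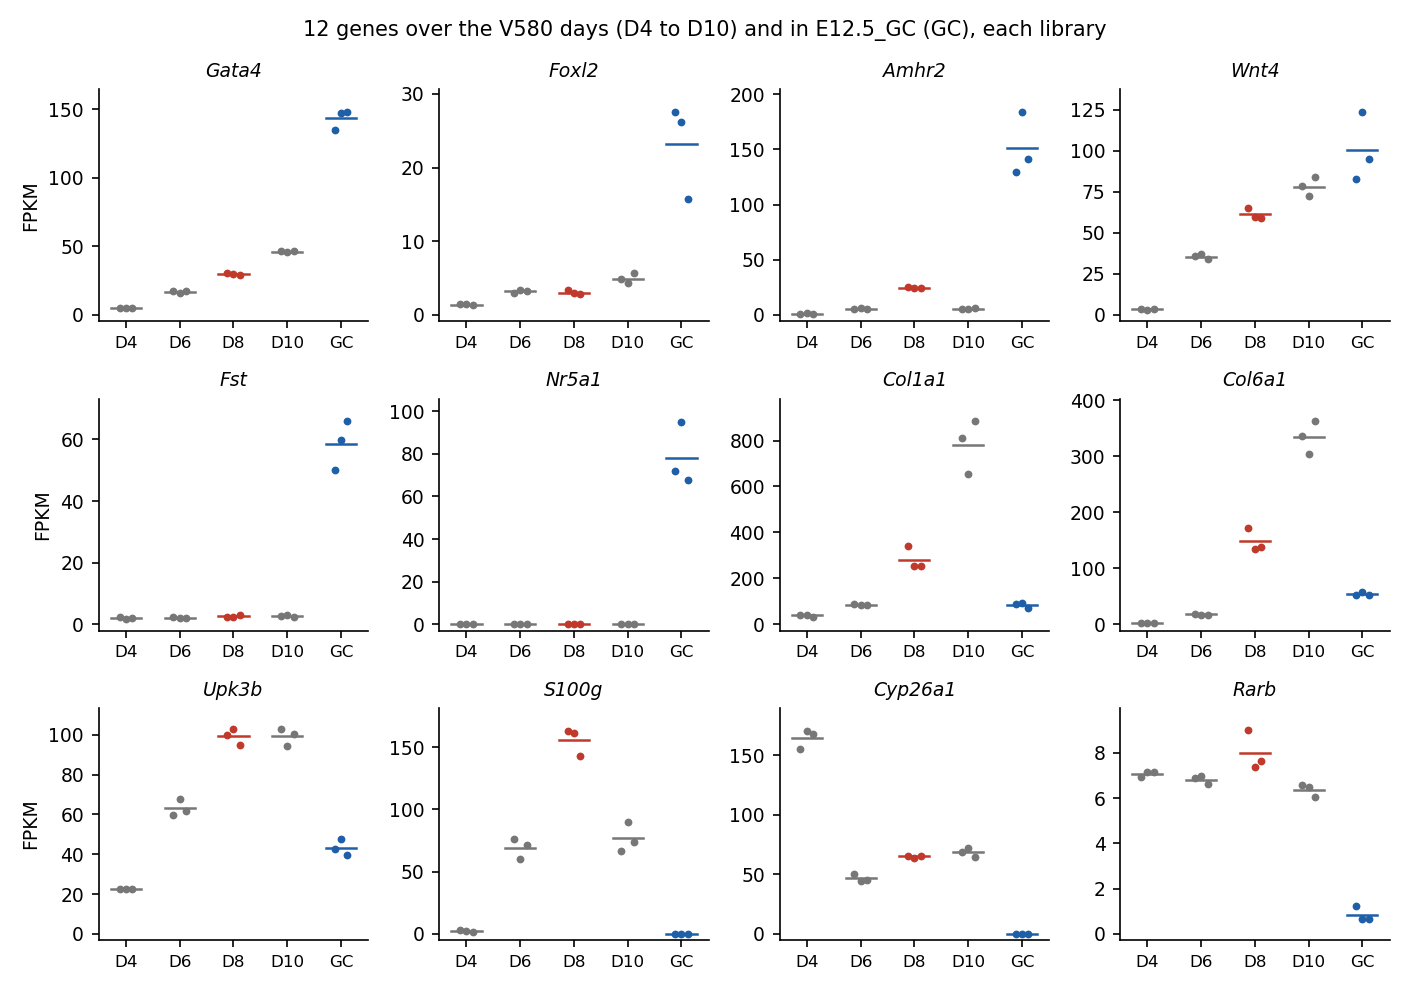
FPKM of 12 genes in each library of V580 days 4, 6, 8 and 10 (D4 to D10; day 8 in red) and of E12.5_GC (GC, blue), on linear axes that start at 0; short lines mark means of 3 libraries. Amhr2 and S100g are highest among the V580 days at day 8, Col1a1 and Col6a1 stand above the gonad at day 8 and highest at day 10, and Fst and Nr5a1 stay near the floor on all days.

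Among called genes, the 5 that varied most within V580_D8 were Nanp, Klf4, Clcn2, Slc4a3 and Tmem119. Nanp, a sugar phosphatase gene, read 3.95, 2.39 and 0.264 FPKM in the 3 day 8 libraries, so that V580_D8 replicate 3 lay within the gonad's range of values, and its adjusted p was 0.0376. The other 4 had ranges of 0.539 to 0.613 on log2(FPKM+1). The median range over all genes tested was 0.127 in V580_D8 and 0.36 in E12.5_GC.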

How the data were processed

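Bulk poly(A) RNA was sequenced as paired ends by the authors, who per their methods aligned the reads to mm10 with HISAT2 at default parameters and counted them with featureCounts. The authors deposited a table of FPKM; the tool that made the FPKM is not given in the sources used here, although the submitters' processing notes also list RSEM, Trim Galore, FastQC and SAMtools. The table holds 13682 genes, how they were selected is not stated, and reads per gene and depth are unknown. Sample groups were taken from the labels. FPKM columns of other groups (16) were not used here.

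Values were tested as log2(FPKM+1) with limma 3.58.1 in R 4.3.3 (trend), for genes with at least 1 FPKM in at least 3 of the 15 libraries of V580_D4, V580_D6, V580_D8, V580_D10 and E12.5_GC in 1 model (11512 genes; 2170 were not tested). A gene was called where the fold was at least 2 and the p, adjusted by BH over all tested genes, was below 0.05. On simulated data with 200 changed genes among 11512 the script called 100% of them and 0 others. The simulation gave each gene the same spread in all groups and moved only well expressed genes, by more than the fold threshold. It shows that the script runs and cannot tell how often calls are wrong in these data. The alternatives were another pseudocount, other filters, normalizations and fold thresholds, a model of only the 2 groups, a replicate block, and leaving out each library. Where haemoglobin genes were removed, all libraries were also rescaled to the same FPKM total, so that setting does not show haemoglobin alone. The study's own test needs counts and was not used.

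The gene lists and the members were chosen with earlier results of these data known. Named were a fixed set of genes, the 10 largest rises and 10 largest falls of genes that reached 5 FPKM without overlap, the 3 largest changes each way and the member with the highest FPKM of each list, all members called in a direction where 5 or fewer were, and the 5 most variable genes. Named outside this rule, after their values were seen, were Amh, Dhh, Sox9, Rarg, Cxcl12, Adgre1, Tyrobp, the other Hox genes, Tet1 to Tet3, Blvrb, Atp5o, Med10, Etv4, Nr4a1, Serpina3g and Chac1. Promoters came from a RefSeq table of GRCm38.p6, in which 9095 of the tested genes had a window. A few genes that the rule names are not reported here.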

Additional observations from a re-analysis of the deposited data

How the results depend on the processing

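None of the fixed genes changed sign under any alternative. V580_D8 against E12.5_GC gave 1493 calls, 824 among genes with a mean of at least 5 FPKM, 7270 without a fold threshold and 408 at 4-fold; with a pseudocount of 0.1 it gave 2104, without a filter 1507, with only the 2 groups in the model 1483, under quantile normalization 1496 (50.1% higher), under median-ratio scaling 1493 (52.4%) and with haemoglobin genes removed 1510 (58.0%), against 53.2% higher as reported. Leaving out 1 library gave 1451 to 1549. With only the 2 groups in the model the limma adjusted p was larger, for Gata4 1.49e-06 rather than 2.65e-13 and for Cyp26a1 1.92e-08 rather than 9.12e-18. For V580_D8 against V580_D6 (293 calls) the counts were 599 with a pseudocount of 0.1, 184 at a mean of at least 5 FPKM, 4737 without a fold threshold, 22 at 4-fold and 279 to 300 without 1 library. For V580_D10 against V580_D8 (149 calls) they were 346, 94, 3969, 7 and 129 to 172. A replicate block left 1493, 293 and 149 calls; the replicate numbers did not pair the samples, since libraries of the same number had correlations of 0.2175, -0.1415 and 0.386 and not every library correlated best with its own number. Among the fixed genes the difference of Wt1 was lost under quantile normalization (adjusted p = 0.355) and with haemoglobin genes removed (0.264), that of Gata6 in a model of only the 2 groups (0.0874), under quantile normalization (0.191) and with haemoglobin genes removed (0.168), and that of Dazl under quantile normalization (0.0656); the cause was not tested. Without E12.5_GC replicate 2 the log2 fold changes of Nr2f2 (0.93) and Sox17 (0.99) fell below the 2-fold threshold. At 4-fold 203 genes were higher and 205 lower in V580_D8 than in E12.5_GC, and without a fold threshold 2332 were higher and 2405 lower than at day 6. Some list medians changed sign. Without E12.5_GC replicate 3 that of bipotential gonad factors was 0.034, of neuronal genes -0.253, of DNA methylation genes 0.112, of liver and yolk sac proteins -0.078 and of p53 and stress genes -0.401. That of ribosomal proteins was 0.049 without E12.5_GC replicate 2 and 0.025 under quantile normalization. Without a filter it was -0.327 for mesonephric and -0.122 for Notch genes. Among genes with a mean of at least 5 FPKM it was 0.185 for 6 endothelial, 0.479 for 1 macrophage, -0.297 for 6 pluripotency and -0.097 for 16 p53 and stress genes. With a pseudocount of 0.1 the germ cell list had 5 genes higher and the steroid and cholesterol list 4. Without read counts, how depth limits the low values is unknown.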
